A study of Mus musculus with 3 samples.

Results

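Endothelial cells, which line the blood vessels of the brain, were picked out of the CD45- sort of mouse glioblastomas at 3 stages of tumor growth by their own transcripts. A cell was taken as endothelial when its counts of Cldn5, Flt1, Cdh5 and Pecam1 summed to at least 3, it held 0 counts of the human EGFR transgene and at most 2 counts of the microglial genes P2ry12, Tmem119 and Gpr34, and it passed filters of at least 500 UMIs, at least 500 genes and at most 20% mitochondrial UMIs. A UMI (unique molecular identifier) is a tag that marks 1 captured RNA molecule, so a UMI count is a count of molecules. The rule found 415 cells of 6676 that passed the filters in the 12 CD45- libraries, of which 179 were early, 147 medium and 89 late. The cells were chosen by their counts of these 4 genes, so the 4 genes are described below and no test rests on them. The junction list (with Cldn5 and Cdh5) and the VEGF and angiopoietin list (with Flt1) keep them. Counts and medians of these lists therefore rest partly on the values that chose the cells.

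All mice carried a conditional human EGFR (wild type) transgene, constitutive loss of Cdkn2a (Cdkn2a-/-) and a conditional luciferase reporter, among other alleles, on a mixed background, and tumors were started in adults by a Cre lentivirus injected into the striatum. The stages differed only by size as the submitters named it: early, medium, and large, the last called late here. There was no tumor-free group among the libraries used. The study's flow cytometry protocol takes the PBS-perfused brain without the cerebellum and dissociates it. Viable CD45- cells were sorted by flow cytometry, and CD45 marks leukocytes. The study's single-cell methods speak of dissociated tumors, so how much surrounding brain was taken is not settled. Vessels inside the tumor and vessels of the surrounding brain cannot be told apart. Each stage was 1 tumor sample split into 4 libraries, sequenced over 3 runs, and libraries of 1 sample are technical repeats, so no test between stages was possible. The study's methods give early samples as pooled from 2 mice and late ones as single tumors. The intervals given are 95% intervals that cover counting error only. The study's methods give adult mice, males and females in equal numbers, and do not tie age or sex to a library. The early cells held 42 UMIs of Xist, an RNA made from the inactive X chromosome, spread over 27 cells, against 0 in medium and 0 in late, while the Y-linked Ddx3y had 23, 34 and 24 UMIs, so stage and the sex of the animals cannot be told apart.

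Brain endothelium forms the blood-brain barrier. Its cells are sealed by tight junctions, carry a dense set of nutrient carriers and efflux pumps, form few transport vesicles, and hold this state under Wnt signalling from surrounding cells. When VEGF drives new vessel growth, some endothelial cells become migrating tip cells that lead a sprout, and the sprout lays down a basement membrane of type IV collagen, laminin and nidogen.

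The promoters of 3 genes on which the results below turn are shown, 1 for each group: Cldn5 for the junctions, Slc2a1 for the transporters and Nid1 for the basement membrane. Each line holds the 250 bases before the gene's start in RefSeq (GRCm38.p6), 5′ to 3′, all on the plus strand, at chr16:18776597-18776846, chr4:119108495-119108744 and chr13:13437352-13437601. Capitals mark matches, on either strand, to 3 motifs that were searched: GGAAG (the ETS core), ACGTG (hypoxia response) and CTTTGA (TCF/LEF).

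Cldn5: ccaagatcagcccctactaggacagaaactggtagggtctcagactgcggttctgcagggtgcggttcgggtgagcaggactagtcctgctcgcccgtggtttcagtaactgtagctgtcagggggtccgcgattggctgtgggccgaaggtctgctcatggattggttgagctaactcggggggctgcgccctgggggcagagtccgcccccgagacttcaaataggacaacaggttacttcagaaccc
Slc2a1: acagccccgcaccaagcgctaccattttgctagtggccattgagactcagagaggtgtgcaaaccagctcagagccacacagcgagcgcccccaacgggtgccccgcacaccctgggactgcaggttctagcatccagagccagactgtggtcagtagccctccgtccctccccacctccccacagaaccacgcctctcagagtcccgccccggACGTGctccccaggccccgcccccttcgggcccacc
Nid1: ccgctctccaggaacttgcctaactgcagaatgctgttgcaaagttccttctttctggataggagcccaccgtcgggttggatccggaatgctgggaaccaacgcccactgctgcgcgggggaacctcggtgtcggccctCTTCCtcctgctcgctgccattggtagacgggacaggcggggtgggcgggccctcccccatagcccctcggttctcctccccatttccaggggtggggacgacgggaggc

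The Slc2a1 window held 1 ACGTG match, 31 bases before the start, and the Nid1 window held 1 ETS match, 105 bases before it. The Cldn5 window held none of the 3. The ETS core occurred in 63.6% of 27025 mouse promoters of this length, in 13 of the 15 endothelial identity genes with a promoter in the table, in 7 of 13 junction genes, in 15 of 24 transporters, in 10 of 18 tip cell genes and in 5 of 11 basement membrane genes. ACGTG occurred in 16.6% of all promoters, in 2 of 15 identity, 2 of 13 junction, 7 of 24 transporter, 2 of 18 tip and 0 of 11 basement membrane promoters. CTTTGA occurred in 14.1% of all and, in the same order, in 3, 1, 6, 1 and 1. A match is a description of these letters and was not read as a binding site.

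The endothelial label was checked against 28 endothelial genes that the rule did not use. All 28 had UMIs in the cells, and their summed level was 18599, 19201 and 13476 CPM in early, medium and late cells against 253, 262 and 228 in the other CD45- cells of the same stages. CPM (counts scaled to a common depth) are the UMIs of a gene divided by all UMIs of the same cells, times 1000000. By the ratio to the other CD45- cells in the stage where that ratio was lowest, the leading genes were Cldn5 (735.5-fold), Robo4 (545), Ly6c1 (403), Ly6c2 (323), Icam2 (304), Flt1 (275), Adgrl4, Sox18, Adgrf5, Ptprb, Ctla2a, Nostrin, Esam, Foxq1 and Tek (137). Robo4 is an endothelial guidance receptor, Tek encodes the angiopoietin receptor Tie2, Ptprb a phosphatase that acts on it, and Sox18 a vascular transcription factor. These ratios describe the choice of cells and are no result. The share of cells with a UMI of Ly6c1 was 87.7%, 89.8% and 76.4% in the 3 stages, against 0.385% in 2859 oligodendrocytes, which should lack it and which had median depths of 2348, 2959 and 2723 UMIs against 1438, 1569 and 1731 in the endothelial cells. The lymphatic marker Lyve1 had 0 UMIs in the endothelial cells and Prox1 had 4, 3 and 4.

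At the edge of the rule, 9 early, 6 medium and 9 late cells entered with exactly 3 marker UMIs, and 30, 19 and 59 cells with 2 stayed out. The median cell had 11, 13 and 13 marker UMIs. Human EGFR counts kept out 0, 4 and 11 cells that passed the markers, and microglial counts 4, 2 and 3. Of the 415 cells, 41 shared their cell barcode with a cell of another CD45- library, 6 of them with another endothelial cell of the same run.

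Some of the chosen cells carried transcripts of other cells, and this moved with stage. Cells with more UMIs of mural genes (pericytes and smooth muscle, such as Pdgfrb and Rgs5) or of fibroblast genes (such as Col1a1 and Dcn) than of the 4 markers are called mixed below. There were 20, 24 and 19 of them in early, medium and late, and they held 13.7%, 34.4% and 36.3% of the endothelial UMIs. Deep cells moved the same way, since 3, 8 and 10 cells had over 5000 UMIs and these held 6.65%, 23.0% and 38.1% of the UMIs, and 0, 7 and 6 of the deep cells were mixed. Summed over its 14 genes the mural list stood at 1530, 2465 and 2560 CPM, and the 8 fibroblast genes at 350, 1603 and 2202, against 419, 662 and 527 in the other CD45- cells. Haemoglobin and other erythroid genes stood at 18066, 931 and 255 CPM, with 51349 in 1 early library of run 3 against 336 to 355 in the other early libraries, and the 10 oligodendrocyte genes at 7187, 1716 and 5870. The oligodendrocyte sum was 19787 in 1 late library of run 3 and 309 to 1155 in the other late libraries, and it ran from 2973 to 20634 over the early ones. Leukocyte genes were near 0, with 1, 2 and 4 UMIs of Ptprc, which encodes CD45, and 4 of the 8 genes at 0. The doublet caller Scrublet marked 91 of the 6676 cells and 6 of the 415. The main values keep the mixed cells, and values without them are added where a 2-fold call ends or a result turns on it.

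**Figure D1:**
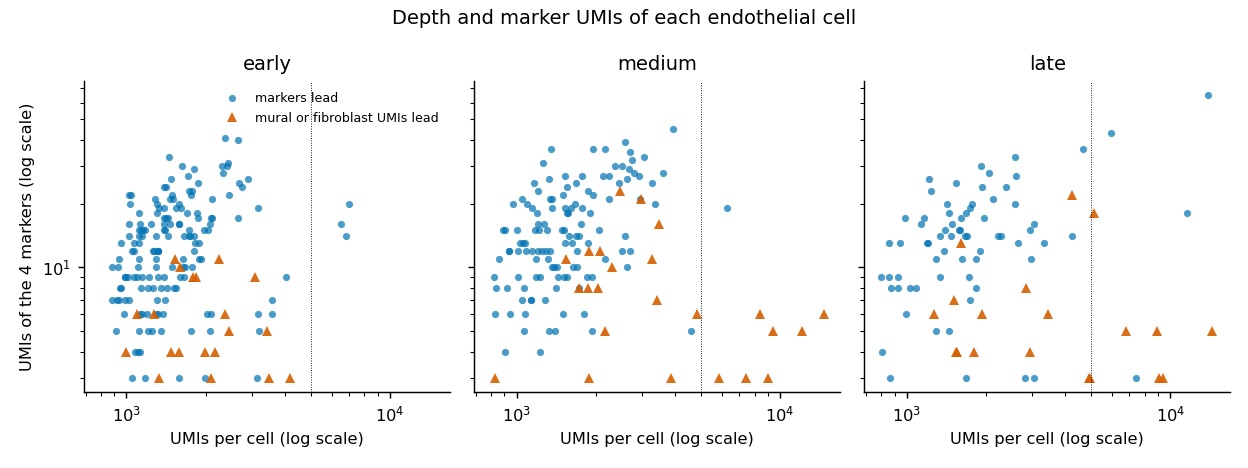
Each point is 1 endothelial cell, with its UMIs on the x axis and its UMIs of the 4 markers on the y axis, both on log scales, for the 3 stages; the dotted line is at 5000 UMIs. Triangles are the mixed cells, 20 in early, 24 in medium and 19 in late, and in medium and late most of the cells right of the line are triangles (7 of 8 and 6 of 10).

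Of the early CD45- cells, 6.49% were endothelial (95% exact Clopper-Pearson interval 5.59% to 7.47%). The share was 9.09% (7.73% to 10.6%) at the medium stage and 3.87% (3.12% to 4.74%) at the late stage. The 3 intervals did not overlap, but the libraries of a stage differed by more than counting error. The early libraries ranged from 1.89% to 8.73%, the medium ones from 6.23% to 12.2%, and the late ones from 2.60% to 5.76%. Within run 1, the early share was 1.89%, the medium 6.23% and the late 4.49%, so there late was above early. In run 2 the shares were 8.73%, 10.1% and 2.60%, and in run 3 they were 7.30%, 9.27% and 3.82%. Medium was above early in each of the 3 runs, and late was below early in runs 2 and 3. A share of sorted cells also depends on how many other cells the tumor held, so a lower share and fewer vessels cannot be told apart.

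**Figure D2:**
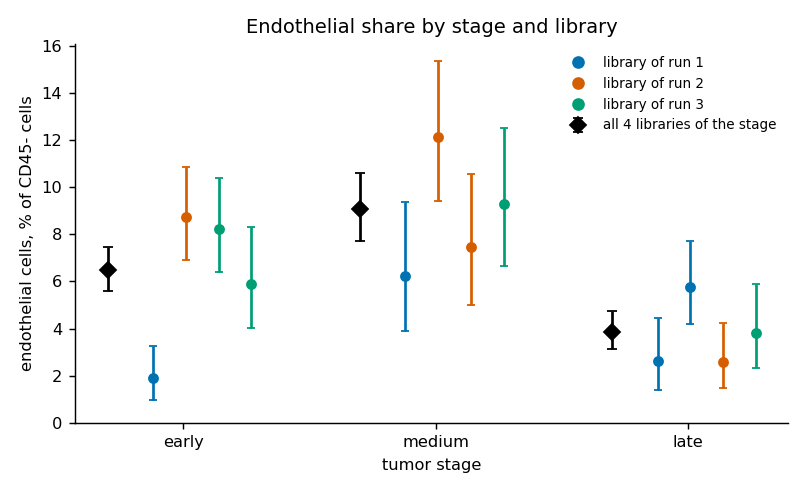
Endothelial cells as a percent of CD45- cells, by stage; black diamonds are the stage, coloured points the 4 libraries by sequencing run, and bars are 95% exact binomial intervals. The late diamond (3.87%) lies below the early (6.49%) and medium (9.09%) ones, and 1 early library, of run 1, lies at 1.89%.

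Genes were compared between stages on summed UMIs as the log2 ratio of CPM, with 0.5 UMI added to each sum, for genes with at least 30 UMIs over both stages. Of 3825 such genes, 392 (10.2%) were at least 2-fold higher in late than in early and 262 (6.85%) at least 2-fold lower. With TMM factors (a scaling by the bulk of genes) the late counts were 308 higher and 371 lower, so the excess of higher genes turned into an excess of lower ones, and the median over all genes went from 0.08 to -0.06. Between medium and early, 366 of 4163 (8.79%) were higher and 257 (6.17%) lower. Between late and medium, 328 of 3979 (8.24%) were higher in late and 302 (7.59%) lower. The median ratio over all genes was 0.05 in medium over early, where TMM factors gave 345 higher and 276 lower. The filter lets a gene pass through the stage where it is high. Members under it in late over early are therefore given by their UMIs for the junction, transporter, Wnt, VEGF, tip cell, Notch and basement membrane lists. For the arterial, venous, interferon, adhesion, hypoxia and cell cycle lists most members under it are not given. Both comparisons share the early cells.

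The tight junction genes compared differed by less than 2-fold from early in both later stages. Of 20 junction genes, which include the rule genes Cldn5 and Cdh5, 15 had enough UMIs. In late over early and in medium over early 0 of the 15 were 2-fold higher or lower. This is near the shares of all genes, 10.2% higher and 6.85% lower in late and 8.79% and 6.17% in medium. The median log2 ratio of the 15 was -0.28 in late over early and -0.15 in medium over early. The count and the medians of this list rest partly on the values that chose the cells. In the same sums the 28 endothelial identity genes had a median of -0.44 in late over early. Of 26 compared, 1 (Sox17) was 2-fold lower and 0 higher, beside 6.85% and 10.2% of all genes. Sox17 was at -1.22, and at -0.89 without the mixed cells. Without the mixed cells the late-over-early medians were -0.15 for junctions and -0.04 for identity genes, and with cells over 5000 UMIs left out they were -0.01 and -0.01.

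Cldn5, the claudin that seals brain endothelium and one of the genes of the rule, had 938, 804 and 516 UMIs. The gene lies at chr16:18776847-18778262 on the plus strand (GENCODE annotation of GRCm38). Its level was 3066 CPM in early, 2527 in medium and 2124 in late cells. By library it was 3084, 3676, 2493 and 2594 in early, 3685, 1854, 3135 and 3131 in medium, and 2681, 2824, 1766 and 1043 in late. The early and late libraries overlapped. The log2 ratio of late over early was -0.53, and -0.15 without the mixed cells.

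Ocln, which encodes occludin, had 337, 261 and 210 CPM and a late-over-early log2 ratio of -0.68 (-1.20 to -0.18), with early libraries from 235 to 444 and late ones from 103 to 309, which overlap, and the ratio was -0.33 without the mixed cells. Tjp1, the scaffold ZO-1, was at 369, 333 and 288 CPM, and Jam2, a junctional adhesion molecule, at 330, 248 and 206. Cdh5, the cadherin of endothelial adherens junctions and a gene of the rule, was at 788, 695 and 506 CPM, with ratios of -1.15, -0.14 and -0.84 within runs 1, 2 and 3. The catenins ran the other way within the list: Ctnnb1 was at 484, 588 and 638 CPM and Ctnnd1 at 154, 154 and 202. Of the 5 members not compared, Cldn1, Cldn3 and Cgn had 0 UMIs in the 3 stages, where a count of 0 allows up to 9.80, 9.43 and 12.4 CPM (3 counts), Cldn12 had 6, 8 and 3, and Marveld2 had 10, 13 and 4.

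Among 30 blood-brain barrier transporters, 28 could be compared, and in late over early 2 were at least 2-fold higher (Slc38a3 and Slc39a8) and 1 lower (Abcb1a, whose ratio is under 2-fold without the mixed cells), beside 10.2% and 6.85% of all genes. Their median was -0.28 in late over early and 0.04 in medium over early. Without the mixed cells the medians were 0.09 and 0.36, and within runs 1, 2 and 3 the late-over-early medians were 0.14, -0.68 and -0.90.

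Abcb1a, which encodes the efflux pump P-glycoprotein, showed the lowest late ratio of the list. The gene lies at chr5:8660077-8748575 and had 403, 425 and 140 UMIs. By library it stood at 1065, 1413, 1270 and 1243 CPM in early, 1474, 1256, 1483 and 1337 in medium, and 464, 725, 544 and 454 in late. Each late library lay below each early and medium one. The log2 ratio of late over early was -1.19 (-1.48 to -0.91), it was -0.89 without the mixed cells, and it was -0.71, -1.37 and -1.47 within runs 1, 2 and 3. The share of cells with an Abcb1a UMI, after each cell was thinned at random to 1000 UMIs, was 53.7%, 56.7% and 39.7%. The share before thinning was 67.0%, 68.0% and 58.4%, against 0.280% of oligodendrocytes. Abcg2, another efflux pump, was at 585, 421 and 317 CPM, a late-over-early log2 ratio of -0.88 (-1.29 to -0.49) and of -1.26, -1.04 and -0.92 within the runs.

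Slc2a1, the glucose transporter GLUT1, had 1693, 1534 and 1013 CPM, and its late-over-early log2 ratio was -0.74 (-0.97 to -0.52). It was -0.32 without the mixed cells and 0.24, -1.31 and -1.93 within runs 1, 2 and 3, so the direction differed between runs. The thyroid hormone and organic anion carrier Slco1c1 gave -0.77 overall and 0.74, -1.54 and -1.53 by run. Mfsd2a, the lipid carrier that keeps vesicle traffic low, was at 343, 236 and 362 CPM, a late-over-early log2 ratio of 0.08 (-0.35 to 0.50). Slc7a5, the large amino acid transporter, was at 673, 821 and 683.

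Slc39a8, a zinc and manganese importer, was higher in both later stages. The gene lies at chr3:135825279-135888572 and had 22, 59 and 40 UMIs. The early libraries stood at 56.1, 59.2, 65.9 and 129 CPM, the medium ones at 192, 183, 236 and 142, and the late ones at 155, 181, 136 and 166. Each medium and late library lay above each early one. The log2 ratio was 1.35 (0.64 to 2.14) in medium over early and 1.18 (0.41 to 2.02) in late over early, and without the mixed cells it was 1.24 and 1.49. Slc38a3, a glutamine transporter, had 40, 66 and 66 UMIs and a late-over-early ratio of 1.04, but -0.215 within run 2. Slc38a5, a related amino acid transporter, had 62, 82 and 79 UMIs and a late-over-early ratio of 0.68, which was 1.15 without the mixed cells. In that setting 3 of 27 transporters were 2-fold higher and 0 lower, near the 8% and 7.41% of all genes there. The insulin receptor Insr had 39, 17 and 24 UMIs. It was the 1 gene of the list that was 2-fold lower in medium over early, at -1.23, beside 6.17% of all genes. Of the 2 members not compared, Ager had 0 UMIs and Slc29a1, a nucleoside carrier, had 8, 9 and 8.

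**Figure D3:**
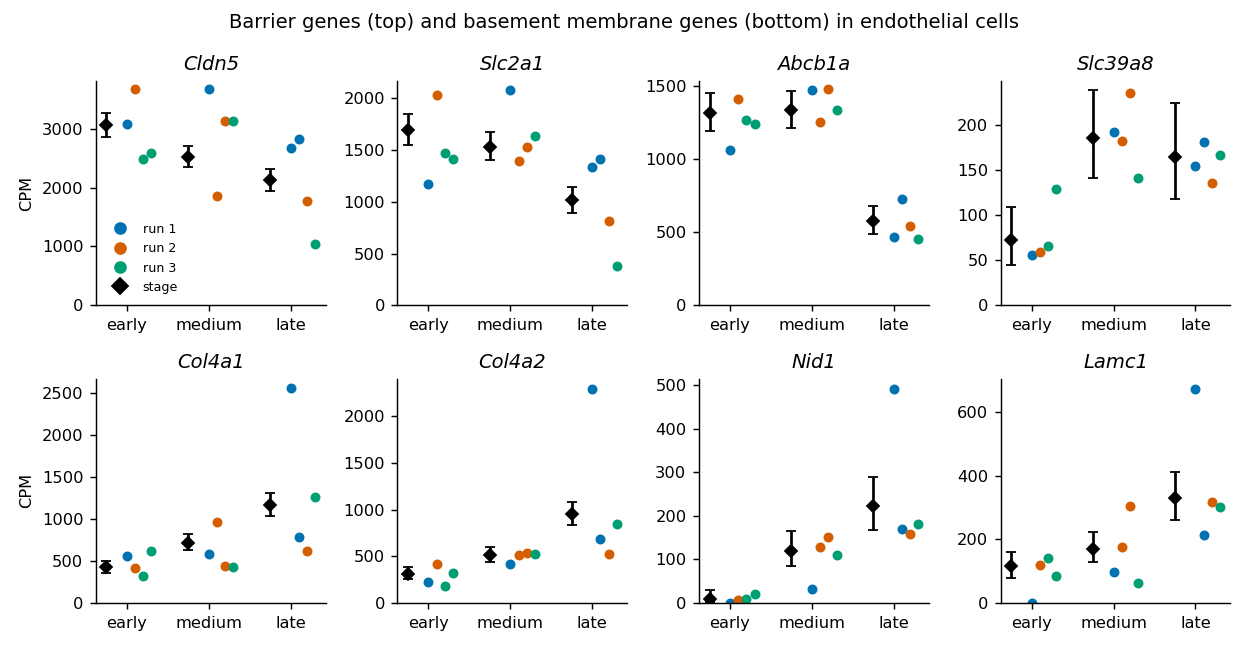
CPM of 4 barrier genes (top row) and 4 basement membrane genes (bottom row) by stage; black diamonds are the stage with 95% exact Poisson intervals and coloured points are libraries by run. Each late library of Abcb1a lies below each early one, and each late library of Nid1 (158.5 to 490) lies above each early one (0 to 21.4).

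Of the 18 Wnt pathway and barrier regulators, 14 could be compared in late over early, with 0 higher by 2-fold and 2 lower (Sox17 and Fzd4), beside 10.2% and 6.85% of all genes. The median was -0.20 (0.02 without the mixed cells). Sox17, a transcription factor downstream of Wnt in brain vessels, had 68, 97 and 23 UMIs. Its early libraries ranged from 141 to 322 CPM and its late ones from 15.1 to 159, which overlap, and its late-over-early log2 ratio was -1.22 (-1.98 to -0.53) and -0.95, -0.65 and -3.35 by run. It was -0.89, under 2-fold, without the mixed cells, while Fzd6, a related Frizzled receptor, went from 0.83 to 1.17 and passed 2-fold. Fzd4, the Norrin and Wnt receptor, had 48, 30 and 16 UMIs and a ratio of -1.23, with 43.8% of its late UMIs in 1 cell. Axin2, a direct Wnt target, had 15, 46 and 4 UMIs, so the medium-over-early log2 ratio was 1.53 (0.69 to 2.51), and 0.93 without the mixed cells. Lef1 was at 232, 208 and 152 CPM, Foxq1 at 340, 255 and 251 and Foxf2 at 304, 289 and 362, and none of these 3 reached 2-fold. The other members not compared in late over early were Apcdd1 (2, 4 and 1 UMIs), Lrp5 (17, 27 and 10) and Tspan12 (21, 21 and 7), the last pair a Wnt co-receptor and a partner of Fzd4.

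Genes of caveolae and vesicles differed from early by less than 2-fold in both later stages in the 8 of 8 members compared, with medians of -0.28 in late and 0.21 in medium over early. For so few genes this is near the shares of all genes, 10.2% higher and 6.85% lower in late and 8.79% and 6.17% in medium. Plvap, which forms the diaphragms of leaky vessels and is kept low at the barrier, had 35, 62 and 24 UMIs, in 5.59%, 7.48% and 6.74% of cells. Its libraries were at 168, 81.4, 84.7 and 257 CPM in early, 0, 262, 219 and 94.4 in medium, and 25.8, 95.9, 0 and 212 in late, which overlap. Cav1, the main caveolar protein, was at 137, 258 and 98.8 CPM, a medium-over-early log2 ratio of 0.90. It was the 1 member that was 2-fold lower in late over medium, at -1.37, beside 7.59% of all genes. Without the mixed cells Cav1 (1.09) and Plvap (1.10) passed 2-fold in medium over early, and Ehd4, a membrane-shaping ATPase, passed it in late over early, at 1.29 against 0.82 with them.

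Of 14 VEGF and angiopoietin genes, 8 could be compared in late over early, and 2 were 2-fold higher (Angpt2 and Flt4) and 0 lower, beside 10.2% and 6.85% of all genes. Without the single late cell described below, Angpt2 was at 0.40 and Flt4 at 0.94, so neither passed 2-fold. Kdr, the main VEGF receptor, was at 1137, 943 and 844 CPM, and its late-over-early log2 ratio was -0.43 (-0.69 to -0.18) or 0.01 without the mixed cells. Flt1, the decoy VEGF receptor and a gene of the rule, was at 3020, 3018 and 1651, a ratio of -0.87 (-0.52 without the mixed cells), with early libraries at 2467 to 3165 and late ones at 862 to 2604, which overlap. Flt4, the receptor of VEGF-C, had 22, 25 and 38 UMIs, in 11.2%, 9.52% and 22.5% of cells, a ratio of 1.10 (0.33 to 1.95). Nrp1, a VEGF co-receptor, was at 239, 233 and 366 CPM. The ligands were sparse, with 3, 0 and 3 UMIs of Vegfa, 14, 8 and 5 of Vegfb, 0, 6 and 2 of Vegfc, 2, 1 and 3 of Pgf and 0, 0 and 1 of Angpt1, and the co-receptor Nrp2 had 8, 10 and 14.

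Many tip cell genes were higher in the late tumor. Of 21 genes of the list, 13 had enough UMIs for late over early, and 9 were at least 2-fold higher (Angpt2, Apln, Col4a1, Col4a2, Mcam, Nid1, Nid2, Pdgfb and Trp53i11) and 1 lower (Igfbp3), beside 10.2% and 6.85% of all genes. Angpt2, Apln, Mcam, Nid1, Nid2 and Trp53i11 passed the filter mainly through the late cells, where they were high. The count is therefore a description and no test. The median log2 ratio was 1.62, and also 1.62 with all 21 genes that had at least 1 UMI. It was 1.65 without the mixed cells, 1.22 without cells over 5000 UMIs (7 genes), 1.10 as a mean over cells and 0.78 when cells were thinned to 1000 UMIs (4 genes). Within runs 1, 2 and 3 it was 4.63, -0.08 and 1.15, so run 2, with 73 early and 15 late cells, did not show it. The summed level of the list was 1732, 2273 and 4487 CPM. In the other CD45- cells it was 521, 824 and 1364, so it was higher in later stages there too, and the part of free RNA was not tested. By library the endothelial sum was 1290, 1775, 1176 and 3044 in early, 1474, 2652, 1955 and 1983 in medium, and 11215, 3442, 2038 and 3658 in late. The late library at 2038 lay below the early one at 3044, and the library at 11215 stood apart from the rest.

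A single late cell carried much of this. It came from run 1 and had 13898 UMIs and 65 marker UMIs, with 1 mural, 1 fibroblast, 1 oligodendrocyte and 8 astrocyte UMIs. This cell held 296 UMIs over 19 of the 21 tip genes, which was 27.2% of the late tip list. It held 29 of the 40 late Angpt2 UMIs, 20 of the 39 of Apln, 21 of the 21 of Esm1, 13 of the 34 of Dll4 and 60 of the 283 of Col4a1. Esm1 is a secreted proteoglycan long used to mark tip cells, and its early cells held 23 UMIs. Without that cell the late-over-early median was 1.20, over the 9 genes that then still had 30 UMIs. Esm1 then stood at -5.37, Angpt2 at 0.40, Unc5b at 0.34 and Dll4 at 0.28. Apln, Col4a1, Col4a2, Mcam, Nid1, Nid2, Pdgfb and Trp53i11 stayed 2-fold higher, and Igfbp3 stayed 2-fold lower. This cell was singled out after its values were seen.

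Angpt2, a secreted antagonist of Tie2 made by sprouting vessels, had 11, 28 and 40 UMIs. Its log2 ratio of late over early was 2.14 (1.21 to 3.31) and 0.40 without the top cell, with -1.69 within run 3. Apln, a tip cell peptide, had 2, 0 and 39 UMIs in 1, 0 and 6 cells, a ratio of 24.6-fold (6.36 to 210), and the log2 ratio was 3.34 without the top cell. In medium a count of 0 allows up to 9.43 CPM. Aplnr, its receptor, had 4, 4 and 25 UMIs, and the chemokine receptor Cxcr4 had 3, 5 and 26, the latter a late-over-early ratio of 10.9-fold (3.34 to 56.4), with late libraries at 103, 117, 67.9 and 121 CPM and early ones at 0, 22.2, 0 and 0. Each late library of Cxcr4 was above each early one.

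Pdgfb, the endothelial signal that recruits pericytes, was higher in both later stages, at 137, 280 and 325 CPM, with log2 ratios of 1.02 (0.48 to 1.59) and 1.23 (0.69 to 1.82). Within runs 1, 2 and 3 the late ratio was 2.02, 0.85 and -0.61 and the medium one 1.61, 1.05 and 1.24. Mcam, an adhesion molecule also present on pericytes, had 14, 22 and 75 UMIs (11, 3 and 52 without the mixed cells), a late ratio of 2.71, and Trp53i11 had 8, 9 and 45, a ratio of 2.74. Igfbp3, a binding protein of insulin-like growth factors, ran opposite to the list with 97, 37 and 37 UMIs, and its early libraries were at 168, 259, 84.7 and 1072 CPM, so 1 early library was high. Of the 8 members not compared in late over early, Chst1 (1, 0 and 14 UMIs), Pcdh17 (8, 4 and 17), Kcne3 (1, 0 and 5) and Plaur (0, 0 and 4) had most UMIs in late, while Ramp3 had 13, 9 and 4, Lxn 15, 6 and 12, Adm 12, 5 and 13, and Cxcr4 is given above.

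Counted per cell at equal depth, the list was also detected in a higher share of late cells. Among cells thinned to 1000 UMIs (164 early, 134 medium and 78 late, with 15, 13 and 11 shallower cells left out), 26.2% of early (19.7% to 33.6%), 35.1% of medium (27.0% to 43.8%) and 44.9% of late cells (33.6% to 56.6%) had UMIs of at least 2 of the 21 genes. The early and late intervals overlapped slightly. Without the mixed cells the shares were 26.2%, 34.2% and 42.4%. By library they were 36.4%, 26.4%, 22.2% and 29.6% in early, 25%, 44.1%, 26.9% and 30.3% in medium, and 61.5%, 38.2%, 40% and 50.0% in late. Each late library was above each early one, though the lowest late (38.2%) and the highest early (36.4%, from 11 cells) differed by less than counting error. At 1 gene or more the libraries overlapped, with 1 late library at 68.75% and 1 early library at 72.7%.

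**Figure D4:**
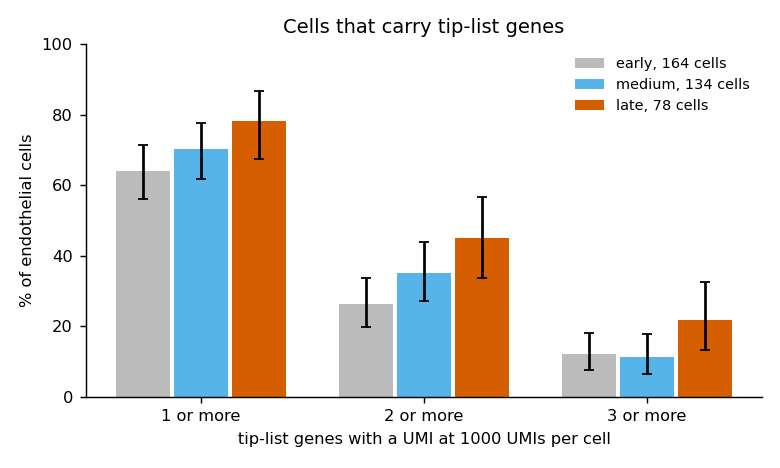
Percent of endothelial cells, thinned to 1000 UMIs, with UMIs of at least 1, 2 or 3 of the 21 tip cell genes; bars are stages (164 early, 134 medium and 78 late cells) and error bars are 95% exact binomial intervals. At 2 genes or more the bars stand at 26.2%, 35.1% and 44.9%, and at 3 or more the early and medium bars are alike at 12.2% and 11.2% with late at 21.8%.

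Basement membrane genes were higher in late than in early endothelial cells. Of 16 genes 13 could be compared in late over early, and 8 were at least 2-fold higher and 0 lower, beside 10.2% and 6.85% of all genes, with a median log2 ratio of 1.46 (1.38 over all 16). In medium over early 2 of 12 were higher (Col18a1 and Nid1) and 0 lower, near the 8.79% and 6.17% of all genes, with a median of 0.58 that was 0.20 when cells were thinned. Without the mixed cells the late median was 1.06, with 5 of 10 genes 2-fold higher beside 8% of all genes in that setting. In medium 0 of 9 were then 2-fold higher, beside 7.58%. Nid1, Col18a1 and Hspg2 were not among these 9, because without the mixed cells they had too few UMIs to be compared. Their early and medium UMIs were then 1 and 11, 1 and 3, and 9 and 17. The log2 ratios of these sparse counts were 3.215, 1.482 and 1.207. The count of 0 therefore does not show that Nid1 and Col18a1 fell under 2-fold. The late median was 0.78 without cells over 5000 UMIs, 0.93 without the top tip cell and 1.21, 0.30 and 1.29 within runs 1, 2 and 3. Col4a1, Col4a2, Nid1 and Nid2 stand in this list and in the tip list, so the lists are not independent. Most UMIs of the list were of Sparc, Sparcl1 and Fn1, given below, so its summed level mainly follows them. The summed level was 7009, 8298, 6642 and 7075 CPM in early libraries, 10286, 10566, 9675 and 9441 in medium ones, and 17893, 11562, 9466 and 10355 in late ones. Each medium and late library lay above each early one. In the other CD45- cells the sum was 1185, 2240 and 3304, so it was higher in later stages there too, and the part of free RNA in the endothelial values was not tested.

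Col4a1 and Col4a2 encode the paired chains of type IV collagen and lie head to head on chromosome 8. Col4a1 had 129, 228 and 283 UMIs, and its libraries were at 561, 414, 320 and 622 CPM in early, 577, 957, 438 and 425 in medium, and 2552, 789, 611 and 1255 in late. The late library at 611 lay just below the highest early one. The late-over-early log2 ratio was 1.46 (1.16 to 1.78), 1.45 without the mixed cells and 1.20 without the top cell. The share of cells with a Col4a1 UMI at 1000 UMIs per cell did not follow it, at 34.1%, 33.6% and 34.6%. Col4a2 had 95, 162 and 232 UMIs, with early libraries at 179 to 422 and late ones at 521 to 2295 CPM, which do not overlap. Its late ratio was 1.61 (1.27 to 1.98), or 1.65 without the mixed cells, and its share of cells at equal depth was 20.7%, 25.4% and 38.5%, against 4.34% of oligodendrocytes before thinning.

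Nid1 encodes nidogen, which links laminin to collagen, and its promoter is the Nid1 sequence printed above. The gene lies at chr13:13437551-13512269 in GENCODE, whose start is inside the printed window, and it had 3 UMIs in early, 38 in medium and 54 in late cells. The early libraries were at 0, 7.40, 9.41 and 21.4 CPM, the medium ones at 32.0, 128, 152 and 110, and the late ones at 490, 170.5, 158.5 and 181. With all cells kept the 3 stages did not overlap. The top tip cell held 18 of the 54 late UMIs. Without it the log2 ratio was 3.77 in late over early and 0.39 in late over medium, and library levels were not computed. The ratio was 12.2-fold (3.87 to 61.7) in medium and 22.7-fold (7.36 to 113) in late over early, and without the mixed cells the UMIs were 1, 11 and 32. Nid2 had 8, 9 and 33 UMIs.

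The laminins differed chain by chain. Lamb1 had 2, 19 and 41 UMIs, a late-over-early ratio of 25.8-fold (6.71 to 220), and 2, 3 and 27 without the mixed cells. Lamc1 had 35, 54 and 80 and a late log2 ratio of 1.51 (0.94 to 2.14), with early libraries at 0 to 141 and late ones at 213 to 670 CPM. Lama4, the laminin chain of endothelium, had 10, 19 and 26 UMIs and a ratio of 1.66, but 0.88 without the mixed cells and -1.35 within run 2. Lamb2 stood at 154, 233 and 214 CPM, and Lama5 had 14, 18 and 13 UMIs. The proteoglycan Hspg2 (perlecan) had 13, 25 and 26 UMIs and a late ratio of 1.30 (0.32 to 2.42). Col18a1, whose fragment is endostatin, had 1, 32 and 27 UMIs, and 1, 3 and 19 without the mixed cells, and Col15a1 had 9, 17 and 14. The abundant matrix genes differed less: Sparc stood at 2435, 3178 and 3853 CPM, a late ratio of 0.66 (0.52 to 0.80), Fn1 (fibronectin) at 964, 1198 and 1704, a ratio of 0.82, and Sparcl1 at 2637, 3379 and 2412.

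**Figure D5:**
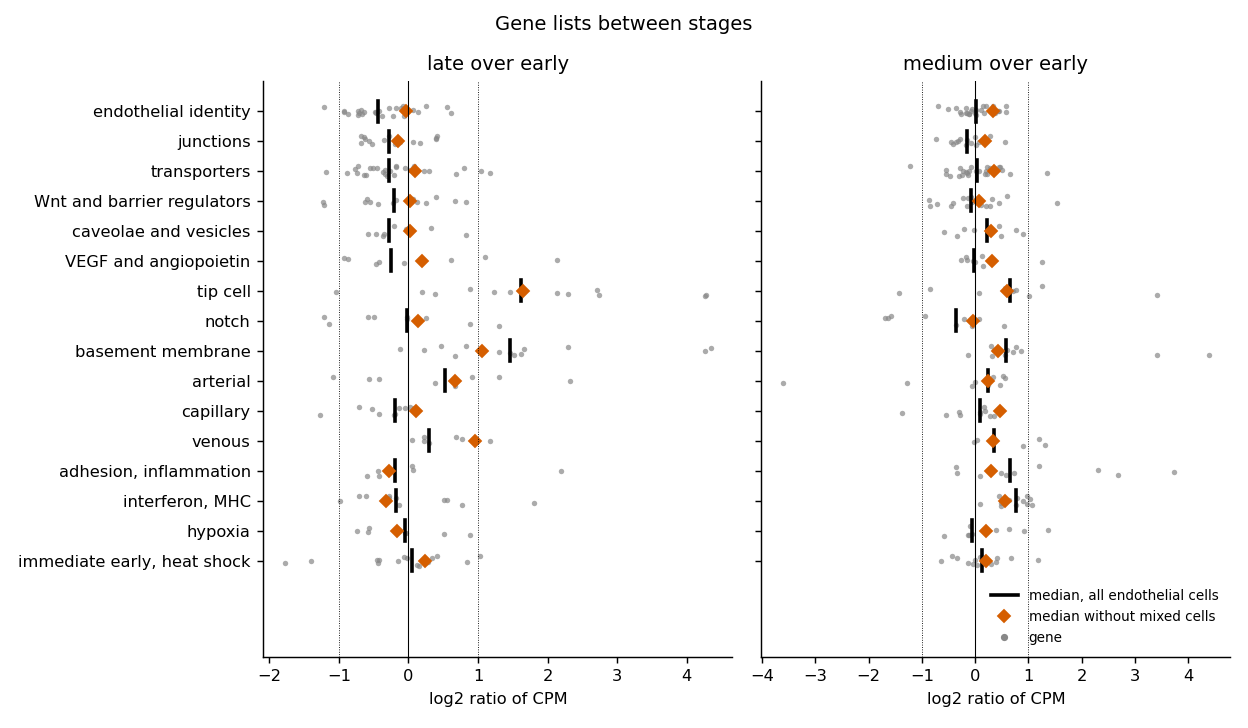
Log2 ratios of CPM for the genes of 16 lists in late over early (left) and medium over early (right); grey points are genes with at least 30 UMIs over both stages, black bars are list medians, orange diamonds are medians without the mixed cells, and dotted lines mark 2-fold. The tip cell (1.62) and basement membrane (1.46) bars lie right of the 2-fold line in late over early, while the junction and transporter bars (both -0.28) lie near 0.

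Notch signalling restrains tip cell formation. Of 14 Notch genes 9 could be compared. In late over early 1 was 2-fold higher (Hey1) and 2 lower (Jag2 and Rbpj), beside 10.2% and 6.85% of all genes, with a median of -0.02. Jag2 was at -0.38 without the mixed cells, under 2-fold. In medium over early 0 were higher and 3 lower (Notch1, Notch2 and Rbpj), beside 8.79% and 6.17%. Dll4, the ligand on tip cells, had 23, 25 and 34 UMIs, a late log2 ratio of 0.88 that was 0.28 without the top cell and 1.28, past 2-fold, without the mixed cells. Notch1 had 34, 11 and 19 UMIs, in 15.6%, 5.44% and 19.1% of cells, a medium-over-early ratio of -1.64 (-2.81 to -0.67). Rbpj, the transcription factor of the pathway, had 27, 9 and 9. The target Hey1 had 16, 16 and 32, a late ratio of 1.30 (0.42 to 2.30) but -0.11 within run 3. The 5 members not compared were Aplnr, given above, and the targets and modifiers Hey2, Heyl, Lfng and Nrarp, with 0 to 14 UMIs in a stage.

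Genes of vessel zones were mixed. Of 15 arterial genes 8 could be compared in late over early, with 2 higher (Hey1 and Mgp) and 1 lower (Stmn2, which was at -0.51 without the mixed cells), beside 10.2% and 6.85% of all genes. Mgp, a calcification inhibitor of large vessels and mural cells, had 246, 369 and 977 UMIs, and 104, 12 and 137 without the mixed cells, so most of its late UMIs lay in them. Capillary genes had a median of -0.20 in 10 of 10 compared, with Ivns1abp 2-fold lower at -1.28, or -0.78 without the mixed cells, and this 1 of 10 is near the 6.85% of all genes. Itm2a stood at 2628, 2936 and 2301 CPM and Spock2 at 1556, 1654 and 1416. Of 12 venous genes 7 could be compared, and Tmsb10, an actin-binding peptide, was the 1 that was 2-fold higher in late, at 703, 883 and 1589 CPM, a log2 ratio of 1.18 (0.93 to 1.43) and 1.45 without the mixed cells. This 1 of 7 is near the 10.2% of all genes. Vwf, the clotting factor stored in endothelium, was at 147, 151 and 181.

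Of 18 antigen presentation and interferon genes 13 could be compared in medium over early, and 2 were at least 2-fold higher (Gbp3 and Psmb8, the latter at 0.95 without the mixed cells) and 0 lower, beside 8.79% and 6.17% of all genes. The median log2 ratio was 0.77, or 0.56 without the mixed cells, and it was -0.17, 0.54 and 1.04 within runs 1, 2 and 3. The summed level was 4822, 4763, 3330 and 4674 CPM in early libraries and 3941, 6426, 7653 and 7238 in medium ones, which overlap through the medium library of run 1. In the other CD45- cells the sum was 1647 in early and 7044 in medium, a larger difference than in the endothelial cells (4255 and 6573). Late over early had a median of -0.18. From medium to late, 7 of 12 genes were at least 2-fold lower and 0 higher, beside 7.59% and 8.24% of all genes, with a median of -1.08. In the other CD45- cells the late sum was 725 CPM, so it was lower than in medium there too. A median without the mixed cells was not computed for late over medium. The class I genes H2-K1 and H2-D1 were at 585, 997 and 482 and at 1144, 1691 and 699.8 CPM, and B2m, their partner chain, at 1346, 1892 and 1103. H2-D1 libraries were at 1234, 1206, 894 and 1501 in early and 1057, 1738, 1736 and 1841 in medium, which overlap through 1 medium library of run 1. In the other CD45- cells H2-K1 was at 220, 1341 and 141 CPM, so it was higher in medium there too, and the part of free RNA was not tested. Isg15, an interferon-induced modifier, had 36, 74 and 26 UMIs, a medium-over-early ratio of 0.97, which was 1.12, past 2-fold, without the mixed cells.

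Among 18 adhesion and inflammation genes, 10 could be compared in medium over early, and 4 were at least 2-fold higher, beside 8.79% of all genes. From medium to late, 5 of 10 were at least 2-fold lower and 0 higher, beside 7.59% and 8.24% of all genes. The median there was -0.90, and it was not computed without the mixed cells. Tnfrsf1a, the main TNF receptor, had 12, 64 and 45 UMIs, at 56.1, 29.6, 47.0 and 42.9 CPM in early libraries, 32.0, 232, 169 and 236 in medium ones, and 155, 266, 67.9 and 166 in late ones. Each late library lay above each early one. Its log2 ratio was 2.31 (1.46 to 3.38) in medium and 2.19 (1.30 to 3.29) in late over early, and 1.91 and 1.70 without the mixed cells. The chemokines Cxcl1 (12, 83 and 16 UMIs) and Cxcl10 (2, 34 and 0) came to 7, 0 and 0 and to 2, 3 and 0 without the mixed cells, and Vcam1, an adhesion receptor, had a medium ratio of 1.19 that was -0.10 without them. Selp had 0 UMIs in the 3 stages and Sele 0, 2 and 0.

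Hypoxia genes gave a late-over-early median of -0.05 with 0 of 7 past 2-fold, a count near the share over all genes (10.2% higher and 6.85% lower). Of 18 cell cycle genes 2 could be compared, too few to set against the 6.85% of all genes that were lower. Of these 2, the replication clamp Pcna was 2-fold lower in late over early. Its UMIs numbered 37, 23 and 9, which gave -1.66 (-2.94 to -0.63) on the log2 scale, or -1.71 without the mixed cells. Its early libraries were at 96.2 to 193 CPM and its late ones at 0 to 67.9, which do not overlap, and it was at -0.73 in medium over early, or -1.06 without the mixed cells. Mki67 and Top2a, which mark dividing cells, had 1, 2 and 3 and 1, 7 and 11 UMIs, and 10 of the 11 late Top2a UMIs were in 1 cell. Of 16 immediate early and heat shock genes, which respond to tissue dissociation among other stimuli, Fosb was 2-fold higher in late over early, and the chaperones Hspa1a (460, 377 and 106 UMIs, a log2 ratio of -1.78) and Hspa1b (710, 475 and 214, -1.40) were lower. This 1 higher and 2 lower of 16 are near the 10.2% and 6.85% of all genes. The mitochondrial share of UMIs was lower in the same order, with medians of 6.57%, 5.45% and 2.76% per cell.

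Outside the lists, many of the genes with the largest ratios had most of their UMIs in mixed cells. The rule asks for the same sign in each run with at least 20 endothelial cells in both stages, and no run had that many for late over early, so these genes passed no check by run. The 8 highest in late over early by the rule were Postn, Col6a3, Cxadr, Pcolce, Penk, S100a6, Lgals1 and Mest. Postn, a matrix protein of fibroblasts, had 0, 2 and 151 UMIs, at least 63.4-fold higher in late against 3 counts in early, but 92.7% of the late UMIs were in 1 cell and 3 remained without the mixed cells. Lgals1 had 7, 54 and 115 UMIs and 7, 1 and 6 without them, and S100a6 had 11, 72 and 201 and then 11, 3 and 8. Mest had 53 late UMIs, of which 90.6% lay in 1 cell that was not mixed. Penk, which encodes proenkephalin, had 4, 7 and 82 UMIs and 1, 7 and 25 without the mixed cells.

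The 8 lowest in late over early were Spata6, Dctn6, Rnf138, Gm20481, Specc1l, Nbeal1, Rraga and Mxi1. Dctn6, a dynactin subunit, had 68, 41 and 8 UMIs in 16, 13 and 7 cells, a log2 ratio of -2.69. Its early libraries were at 112, 414, 75.3 and 42.9 CPM, so 1 was high, and leaving out 1 library brought the ratio as near 0 as -1.04. Rraga, a GTPase of nutrient sensing, had 75, 23 and 12 UMIs. Gm20481 had 50, 37 and 6 UMIs, and it lies opposite Hspa1a on chromosome 17 within the same bases, so the reads of this pair cannot be told apart where counting ignored strand, which the sources do not state.

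Among the 8 highest in medium over early were Cxadr, Slc7a11, Pcolce, Cyp1b1, Tnfaip2, Ifi47 and Smurf2. Without the mixed cells Slc7a11, the cystine transporter, went from 3, 76 and 3 UMIs to 3, 2 and 3, and Cyp1b1 from 4, 80 and 25 to 3, 2 and 9. Smurf2, a ubiquitin ligase of TGF-beta signalling, was different in this respect, with 5, 53 and 7 UMIs in 5, 18 and 5 cells and 5, 44 and 6 without them, a log2 ratio of 3.23. Ifi47, an interferon-inducible GTPase, had 3, 35 and 16 UMIs and 3, 21 and 6 without them. The 8 lowest were Arid4a, Zfx, Azin1, Kantr, Enc1, Jmjd1c, Pigg and Slc23a2, of which Enc1 had 33, 5 and 38 UMIs.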

How the data were processed

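Flow-sorted cells were run on inDrop, with 16 libraries per sequencing run according to the labels. The deposited table holds UMI counts per gene and cell. According to the methods, the authors mapped reads with RapMap in bcbio-nextgen to a GRCm38 transcriptome (Ensembl 94) with the transgenes added, and called cells against empty droplets. They also describe removal of ambient RNA and doublets, without stating whether the deposited counts came before it. Stage, sort and run of each library came from the deposited annotation text. Of 20811 cells, 11720 columns of CD45+ libraries were not used here.

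UMIs were summed over cells per stage, library and run (Python 3.11.15, numpy 2.4.6, scipy 1.17.1, pandas 2.3.3, matplotlib 3.10.9). Ratios of CPM used a prior count of 0.5 and genes with at least 30 UMIs over both stages. Intervals are exact (95%; Clopper-Pearson for shares, Poisson for levels, conditional binomial for ratios) and cover counting error only. With 1 tumor sample per stage no p-value was computed. Of 50262 gene IDs, 50150 had a symbol. Scrublet (scanpy 1.11.5) used an expected rate of 6% and 20 components. TMM factors came from edgeR 4.0.16 (R 4.3.3). The counting steps were tested on simulated data. Outside the lists, genes were named as the 8 highest and 8 lowest ratios of each comparison with the same sign in each run that had at least 20 endothelial cells in both stages (none for late over early) and a level, in the higher stage, no lower than in the other CD45- cells, and as the 15 genes most enriched over other CD45- cells; mitochondrial, haemoglobin, Xist, Tsix and Y-linked genes were left out of the ranking. The members, lists and alternatives were chosen with earlier results of these data known, and the alternatives without mixed cells, without cells over 5000 UMIs, without the top tip cell and within runs of at least 10 endothelial cells per stage (run 1 had 12 in early) were chosen after seeing the data. An allele shared by all mice and 1 of the genes ranked highest in medium over early are not reported here.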

Additional observations from a re-analysis of the deposited data

Results flagged for a closer look

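In the early tumor, the summed level of the 18 interferon and antigen presentation genes was 3330 CPM in 1 library of run 3 and 4674 to 4822 in the other 3 libraries, a gap that was large for a group of 4. It was 1 of 51 groups of libraries examined in this way, and chance alone marks about 1 in 20. The same library had 51349 CPM of erythroid genes against 336 to 355 in the other early libraries, and the part of this in the lower sum was not tested.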

How the results depend on the processing

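Ratios in these cells rest on few and unequal cells, and late sums depend on a small number of deep cells. No paired analysis was possible because the libraries of a stage are technical repeats of 1 sample and share no animal across stages. For each setting the cause of a change was not tested. Among the list, marker and named genes alone, and not all genes, 98 comparisons were past 2-fold. Of these, 94 remained past it with TMM factors and 49 of 57 with enough UMIs without the mixed cells. Within runs 1, 2 and 3 it was 31 of 40, 64 of 81 and 52 of 71. The named genes were picked for the largest ratios, so these counts say little about the other genes.

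The early share (6.49%) was 5.33% over every deposited cell, 1.89% in run 1 and 8.73% in run 2. The medium share (9.09%) was 6.49% over every deposited cell, 11.6% without cells over 5000 UMIs, 7.61% without mixed cells and 6.23% in run 1. The late share (3.87%) was 4.87% with 2 marker UMIs, 4.96% without cells over 5000 UMIs, 3.05% without mixed cells and 2.60% in run 2. Leaving out each library gave 5.51% to 7.86% in early, 7.75% to 9.84% in medium and 2.99% to 4.30% in late.

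Genes 2-fold higher in late over early numbered 1382 and 4521 with minimums of 10 and 1 UMIs, 248, 237 and 239 without cells with oligodendrocyte, astrocyte or fibroblast UMIs, 96 after thinning, 213 without cells over 5000 UMIs and 230 without mixed cells. Those lower numbered 912, 3633 and, thinned, 121. In medium over early the higher ones numbered 1278, 4199, 239 without cells with oligodendrocyte UMIs, 100 thinned and 237 without mixed cells, and the lower ones 1016, 4041, 159 and, thinned, 110. Leaving out each library gave 315 to 378 higher and 167 (without early library 2) to 316 lower in late over early, and 210 (without medium library 2) to 413 higher and 172 to 278 lower in medium over early.

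The junction median in late over early was -0.08 without cells with fibroblast UMIs, -0.068 as a mean over cells, -0.047 thinned, -0.0059 without cells over 5000 UMIs and 0.078 in run 1, and in medium over early 0.46 in run 1. The transporter median was -0.90 in run 3 (late) and 0.67 in run 1 (medium). The tip median was 4.63 in run 1 and -0.083 in run 2 (late), and 0.11 and 0.085 with minimums of 10 and 1 UMIs and 0.067 in run 3 (medium). The basement membrane median in late over early was 0.72 without cells with astrocyte UMIs, 0.61 thinned, 0.78 without cells over 5000 UMIs and 0.30 in run 2. In medium over early it was 0.65 with minimums of 10 and of 1 UMI, 0.54 without Scrublet calls, 0.50, 0.29, 0.40 and 0.48 without cells with mural, oligodendrocyte, astrocyte or fibroblast UMIs, 0.50 as a mean over cells, 0.20 thinned, 0.39 without cells over 5000 UMIs, 0.43 without mixed cells, and 0.34, 0.40 and 0.40 in runs 1, 2 and 3. Leaving out each library gave, in late over early, -0.46 to -0.023 for junctions, -0.40 to -0.10 for transporters, 1.04 (without late library 1) to 1.94 for tip genes and 0.90 (without late library 1) to 1.52 for the basement membrane. In medium over early it gave -0.28 to 0.12, -0.02 to 0.29, 0.089 (without medium library 2) to 0.74 and 0.46 to 0.73.

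Genes that turned direction in late over early were Slc38a3 (-0.215), Fzd4 (0.0285) and Lama4 (-1.35) in run 2, Angpt2 (-1.69), Pdgfb (-0.61) and Hey1 (-0.11) in run 3, and Igfbp3 (0.21), Jag2 (0.39) and Ivns1abp (3.98) in run 1. In medium over early they were Angpt2 (-0.81) and Cxcl1 (-0.30) in run 3, Notch2 (0.45) in run 2, Vcam1 (-3.60) in run 1, Nr2f2 (-0.35 and -0.19) and Vcam1 (-0.30 and -0.12) without cells with astrocyte or fibroblast UMIs, and Fosb (-0.010) without medium library 2, with 1.53 as the highest Fosb value when a library was left out.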
